A study of Homo sapiens with 9 samples.

Results

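Antisense transcripts are RNAs read from the strand opposite a known gene, here the genes whose symbol ends in -AS or -AS and a number (RUSC1-AS1 is the antisense transcript of RUSC1). The array held 792 such genes on 1097 probe sets that carry 1 gene symbol. The brightest probe set, by mean log2 signal over the 9 arrays, stood for each gene. The members were chosen by that mean: 125 of the 792 (15.8%) had log2 5 or more, which is 32 on the linear scale. The mean over all arrays chose them, so their levels are a description and no support for detection. Of the other genes, 105 lay between log2 5 and the filter on low values at log2 4.15, and 562 lay below that filter.

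The cells were PANC-1, an established human line from a pancreatic carcinoma of ductal origin. For 6 h or 72 h they received 5 uM of the small molecule BRD7552. Control cells received its solvent DMSO, with no exposure time in the labels. The same solvent arrays served both times, so exposure to the compound and time in culture cannot be told apart in these comparisons. Each group had 3 arrays, and the dose had been picked because it was the lowest that gave full induction of PDX1. Each exposure time was compared with solvent, and the later with the earlier time.

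Most antisense transcripts are long noncoding RNAs, and many start near the promoter of the sense gene or cover part of its exons. Some are known to act where they are made, by pairing with the sense RNA, by recruiting or blocking chromatin regulators or by interfering with transcription through the shared DNA, while for most no function is known. Many are nuclear, present at few copies per cell and turned over by the RNA exosome. Of the members with an entry in the RefSeq gene table, 123 of 124 were annotated as long noncoding RNA, and PINK1-AS as antisense RNA.

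Promoters of 5 members on which the results turn are printed here from RefSeq, build GRCh38.p14, with 250 bases before to 50 bases from the annotated start, 5′ to 3′ on the strand of the antisense gene. Capitals mark the 50 bases from the start and, in GATA2-AS1, also a cAMP response element. ATP6V0E2-AS1 (chr7:149873813-149874112, minus strand) showed the largest fall, and RUSC1-AS1 (chr1:155324127-155324426, minus strand) was called at 6 h. GATA2-AS1 (chr3:128488953-128489252, plus strand) fell together with its sense gene. ZNF232-AS1 (chr17:5111685-5111984, plus strand) and MAPKAPK5-AS1 (chr12:111842956-111843255, minus strand) rose while their sense genes fell. The rise of MAPKAPK5-AS1 rests on its brightest probe set.
ATP6V0E2-AS1: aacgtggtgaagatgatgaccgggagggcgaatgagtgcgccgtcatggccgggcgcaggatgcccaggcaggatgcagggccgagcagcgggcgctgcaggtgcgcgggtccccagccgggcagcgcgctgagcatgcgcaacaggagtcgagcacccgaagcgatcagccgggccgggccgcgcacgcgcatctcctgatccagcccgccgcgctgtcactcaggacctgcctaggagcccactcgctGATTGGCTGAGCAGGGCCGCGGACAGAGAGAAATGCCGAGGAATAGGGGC
RUSC1-AS1: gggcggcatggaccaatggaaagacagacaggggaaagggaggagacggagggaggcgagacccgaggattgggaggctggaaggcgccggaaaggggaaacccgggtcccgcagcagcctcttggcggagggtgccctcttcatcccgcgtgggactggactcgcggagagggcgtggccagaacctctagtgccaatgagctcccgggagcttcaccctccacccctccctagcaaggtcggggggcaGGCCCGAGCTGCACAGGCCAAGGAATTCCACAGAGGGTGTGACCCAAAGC
GATA2-AS1: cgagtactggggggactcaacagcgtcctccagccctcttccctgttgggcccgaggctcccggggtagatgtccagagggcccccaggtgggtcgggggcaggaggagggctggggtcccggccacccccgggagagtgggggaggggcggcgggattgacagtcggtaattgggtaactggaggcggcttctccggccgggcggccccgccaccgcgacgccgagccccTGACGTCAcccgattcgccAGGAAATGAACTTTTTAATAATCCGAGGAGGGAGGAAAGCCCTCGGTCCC
ZNF232-AS1: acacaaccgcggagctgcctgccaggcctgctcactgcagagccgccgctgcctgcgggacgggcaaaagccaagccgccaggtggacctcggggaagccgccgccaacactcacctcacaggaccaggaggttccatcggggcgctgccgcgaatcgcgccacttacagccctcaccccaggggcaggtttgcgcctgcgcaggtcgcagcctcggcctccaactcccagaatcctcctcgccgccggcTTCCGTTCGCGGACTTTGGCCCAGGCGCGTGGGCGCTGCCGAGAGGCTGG
MAPKAPK5-AS1: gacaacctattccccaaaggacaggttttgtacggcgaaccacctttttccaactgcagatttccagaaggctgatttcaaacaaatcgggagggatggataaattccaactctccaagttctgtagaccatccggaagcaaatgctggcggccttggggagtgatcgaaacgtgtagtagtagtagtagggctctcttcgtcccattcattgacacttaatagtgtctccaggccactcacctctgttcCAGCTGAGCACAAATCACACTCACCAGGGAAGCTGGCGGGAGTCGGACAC

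Of the 125 members, 104 had a promoter in the RefSeq table. The median share of G and C was 64% in members against 58.7% over all 35116 promoters of this length, and the median number of CG pairs was 24 against 14. Among those printed, the share of G and C ran from 50% in MAPKAPK5-AS1 to 70.3% in ZNF232-AS1. The motifs were searched on both strands. TGACGTCA, the cAMP response element, was found in 2 members (1.92%; 1.85% of all promoters): ZNF143-AS1, and GATA2-AS1, where it lay 19 bases before the start. TGATGNAA, an element of ATF4 and C/EBP factors, was found in 2 members (1.92%; 3.62% of all), neither of them called in any comparison. TATAAA was found in 5 members (4.81%; 11.5% of all), of which CARD8-AS1 was called. TGACTCA, the AP-1 site, was found in 6 members (5.77%; 4.95% of all), and the sterol regulatory element in 0 (0.0456% of all). A match is a run of letters in the window and not a measured site.

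Most members were dim. Their median mean signal was log2 5.80, with 76 of 125 between log2 5 and 6, 23 between 6 and 7, and 26 at 7 or more. The brightest was FGD5-AS1 at log2 10.13. Just inside the threshold were ATP8B1-AS1 at 5.021, DNAAF3-AS1 at 5.043 and PCBP1-AS1 at 5.072. Just outside were UBAC2-AS1 at 4.986, LIMD1-AS1 at 4.991 and SP2-AS1 at 4.991. Replicates of members were further apart than those of all genes tested: the median SD within a group was 0.0948 log2 units for members against 0.0666 for all genes in DMSO, 0.109 against 0.0750 at 6 h and 0.216 against 0.129 at 72 h. That comparison was not matched for level. Between log2 5 and 6 the median standard error of a change by limma was 0.149 in members and 0.154 in all genes. It was 0.137 against 0.126 between 6 and 7, and 0.0915 against 0.0673 at 7 or more. Over all members it was 0.140, and over the long noncoding genes named LINC at log2 5 or more 0.138. The 95% interval of a member's change had a median half-width of 0.3 log2 units (range 0.0978 to 0.563). The changes that could be detected thus differed between members with 3 arrays a group.

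Over the whole series, the median probe set ran from 16.2 to 18.8 on the linear scale per array, and the upper quartile from 112 to 119 except on 72 h replicates 2 and 3, at 97.5 and 99.7. All 7 ductal epithelial markers looked at lay above the filter, with KRT8 at 5876 to 9118, while the leukocyte markers PTPRC, CD3E and CD14 lay below it. Of the markers of other cell types, COL1A1, DCN, PECAM1, CELA3A and HBB lay above the filter. The labels do not say that replicates came from separate cultures, so the spread behind every p-value may be technical. Probe sequences were not used here, and which strand each probe set reads was not checked.

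After 6 h of BRD7552, 1 of the 125 members rose and none fell by limma (adjusted p below 0.05), and 7 had an unadjusted p below 0.05. Over all 12678 genes tested, 0.473% were called in this comparison, 0.363% higher and 0.11% lower, and 582 genes had an unadjusted p below 0.05. The median change of the members was -0.015 log2 units, with a range from -0.48 to 0.91. The arrays of both groups did not overlap in 15 members (12%), against 12.2% of all genes.

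The member called was RUSC1-AS1, on the opposite strand at the start of RUSC1, an adaptor protein of vesicle traffic. Its linear signal was 50.5, 52.4 and 34 in DMSO, 89.2, 89.5 and 74.8 at 6 h and 89, 62.5 and 59.3 at 72 h. Every treated array lay above every DMSO array. Errors after ± are standard errors of the limma estimate, with 3 arrays a group. The rise was 1.88-fold at 6 h (0.91 ± 0.18 log2 units, adjusted p = 0.0413; 95% interval 0.52 to 1.30) and 1.54-fold at 72 h (0.62 ± 0.18 log2 units, adjusted p = 0.0199), and the times did not pass the test against each other (-0.29 ± 0.18 log2 units, adjusted p = 0.291). The estimate at 6 h ran from 0.71 to 1.02 when each array was left out in turn, and the call was lost without each of the 9 arrays except 72 h replicate 1. The call at 72 h was lost without DMSO replicate 3 (0.42) or 72 h replicate 1 (0.44). With the same arrays, the call at 6 h was also lost without the filter on low values, with the mean of the gene's probe sets, without the variance trend and when adjusted over all probe sets. With the same arrays, the call at 72 h was lost with the mean of the gene's probe sets, without the variance trend and when adjusted over all probe sets. A further probe set, at a mean of log2 3.29 and so below the filter, was at -0.0046 log2 units at 6 h and 0.0005 at 72 h. It did not pass the test at either time. In bulk RNA, a change in every cell and a change in the share of cells that make a transcript cannot be told apart.

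The 15 members separated from DMSO at 6 h were 12% of members, close to the 12.2% of all genes tested. Of these, 7 lay above DMSO and 8 below, and all but RUSC1-AS1 did not pass the test. CCDC18-AS1 had 36.9, 31.3 and 26.6 in DMSO and 44.7, 41.4 and 42.4 at 6 h (0.45 ± 0.15 log2 units, adjusted p = 0.485). ANXA2R-AS1 had 33, 39 and 38.5 in DMSO and 51.9, 50.6 and 43.7 at 6 h, ATXN1-AS1 had 61.4, 70.6 and 57.8 and 71.2, 88.8 and 76.3, and OIP5-AS1 had 459, 471 and 452 and 510, 503 and 503. In each of these the 6 h arrays lay above all DMSO arrays. They lay below all DMSO arrays in STARD7-AS1 (-0.39), DLG5-AS1 (-0.25), ERCC6L2-AS1 (-0.25) and GATA2-AS1 (-0.16), among others. With array weights, ATXN1-AS1 was called beside RUSC1-AS1, and 1.66% of all genes were called.

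After 72 h, 19 of the 125 members (15.2%) were called, 7 higher and 12 lower, and 37 had an unadjusted p below 0.05. Over all genes tested 26.6% were called, 8.33% higher and 18.3% lower, and 31% of those with a mean of log2 5 or more. Of the 12678 genes tested, 4683 had an unadjusted p below 0.05 by limma. Split by level, the shares called were 10.5% of members against 12.6% of all genes between log2 5 and 6, 26.1% against 26.4% between 6 and 7, and 19.2% against 35.5% at 7 or more. The median change of the members was -0.040 log2 units against -0.062 for all genes, and the range was from -1.07 to 0.71. The arrays of both groups did not overlap in 34 members (27.2%) against 36.9% of all genes. The split by direction depended on the scaling: 63.2% of called members were lower on the deposited scale (68.7% of all called genes), 57.1% after median centring, 29.6% after cyclic loess and 26.9% after quantile normalization, where the median member was at 0.070. Of all called genes 60.7% were lower after median centring, 52.5% after cyclic loess and 54.3% after quantile normalization, where the median of all genes was 0.0016. On 72 h replicate 1, 89 of the 125 members (71.2%) were the highest of the 3 arrays, against 59.9% of all genes, and without it 34 members were called (27.2%; 33.3% of all genes), 5 higher and 29 lower. In that setting 85.3% of called members and 78.1% of all called genes were lower. Without DMSO replicate 1 the count was 11, with 19.4% of all genes called, and without DMSO replicate 3 it was 9, with 18.1%.

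**Figure D1:**
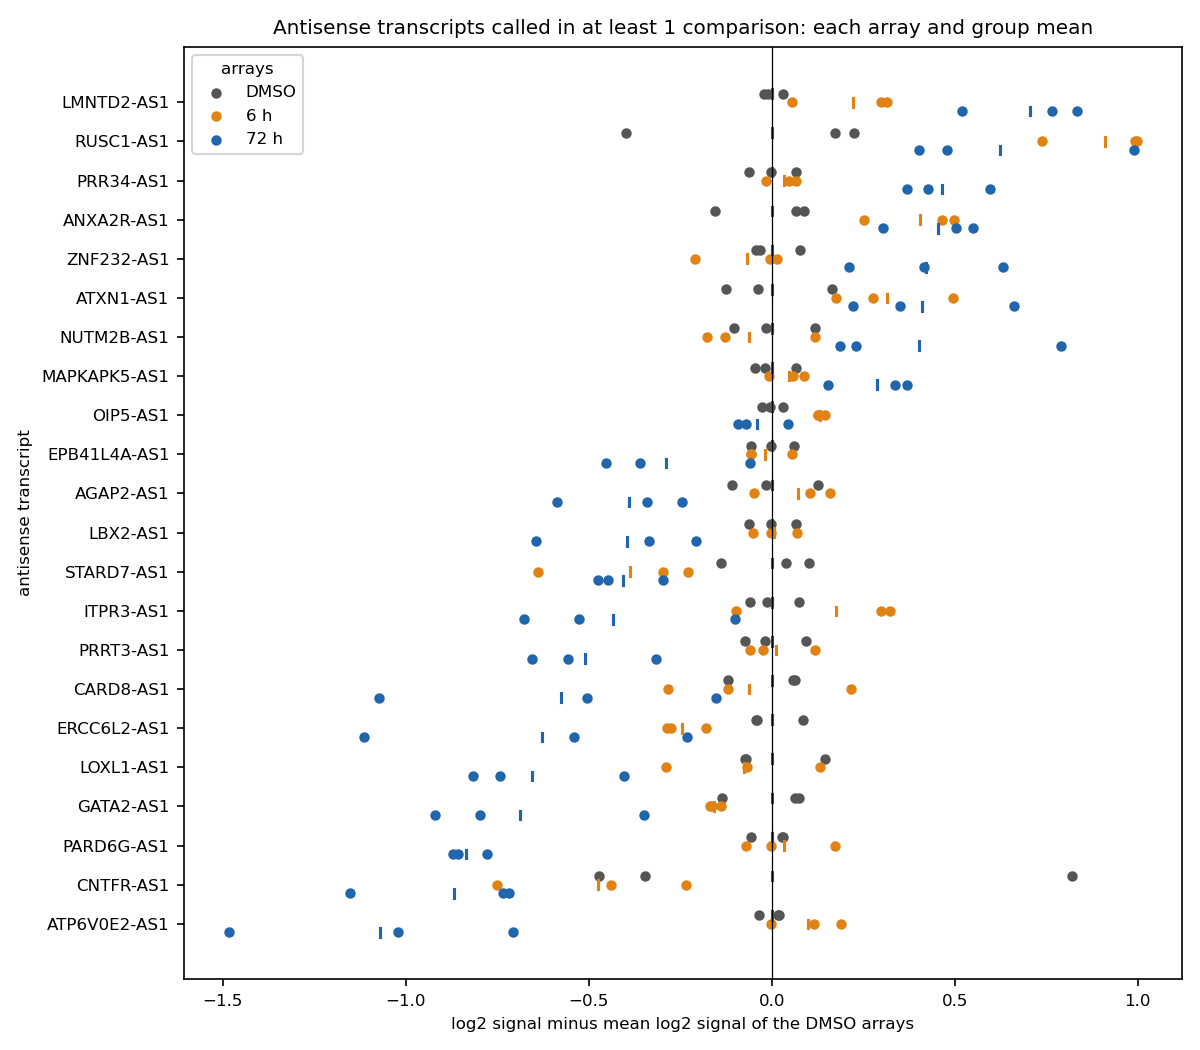
Signal of the 22 antisense transcripts called in at least 1 comparison on each of the 9 arrays, as log2 difference from the mean of the DMSO arrays; each point is 1 array, coloured by group, and the short bars are group means. ATP6V0E2-AS1 lies lowest at 72 h with a mean change of -1.07, and RUSC1-AS1 is raised at 6 h by 0.91.

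The largest fall was that of ATP6V0E2-AS1, which covers the start of ATP6V0E2, a subunit of the proton pump of lysosomes and other vesicles. Its signal was 56.6, 56.5 and 54.5 in DMSO, 60.4, 55.7 and 63.6 at 6 h and 34.2, 20 and 27.5 at 72 h. The 72 h arrays lay below all others, and the change was -1.07 ± 0.17 log2 units, adjusted p = 0.000258. It was the only member past a 2-fold change at 72 h. The sense gene ATP6V0E2 had 314, 345 and 353 in DMSO and 325, 345 and 300 at 72 h, which overlap, with a change of -0.06 ± 0.076.

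PARD6G-AS1, named as antisense to the cell polarity gene PARD6G, had 116, 123 and 123 in DMSO, 136, 115 and 121 at 6 h and 70.5, 66.7 and 66.1 at 72 h. The 72 h arrays lay close together and well below the rest (-0.84 ± 0.10 log2 units, adjusted p = 3.28e-05). PARD6G itself overlapped between the groups, at 54.7, 54.7 and 51 in DMSO and 56.9, 42.8 and 63.9 at 72 h (0.01 ± 0.14). A further, dimmer probe set of PARD6G-AS1 was at 0.19 log2 units and did not pass the test.

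CNTFR-AS1, inside the gene of the ciliary neurotrophic factor receptor, had 54, 58.9 and 132 in DMSO and 45.5, 33.7 and 45 at 72 h. The groups did not overlap, but DMSO replicate 3 stood far above its own group. The change was -0.87 ± 0.26 log2 units, adjusted p = 0.0238, and it was -0.46 and not called without that array. The call was also lost without 72 h replicate 2. With all arrays it was lost with the mean of probe sets, when adjusted over all probe sets, without the variance trend and with array weights.

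GATA2-AS1 overlaps the start of GATA2, a zinc finger transcription factor. Its signal was 88.8, 88.2 and 76.7 in DMSO, 75.4, 76.6 and 75.1 at 6 h and 66.3, 44.6 and 48.6 at 72 h. The groups at 72 h and in DMSO did not overlap (-0.69 ± 0.14 log2 units, adjusted p = 0.00237). LOXL1-AS1, opposite the lysyl oxidase gene LOXL1, had 60, 69.8 and 60.2 in DMSO and 47.7, 35.9 and 37.8 at 72 h. All 72 h arrays were lower (-0.65 ± 0.15 log2 units, adjusted p = 0.0044), while the difference of LOXL1, 0.08, did not pass the test.

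PRRT3-AS1 was among the brighter members that fell, from 237, 229 and 257 in DMSO to 193, 153 and 163 at 72 h. Its arrays at 72 h lay below all DMSO and 6 h arrays (-0.51 ± 0.10 log2 units, adjusted p = 0.00114). ERCC6L2-AS1, opposite the start of a DNA repair helicase gene, had 54.2, 59.3 and 54.3 in DMSO and 47.6, 25.8 and 38.4 at 72 h. Its 72 h arrays were spread widely, with replicate 2 the lowest (-0.63 ± 0.18 log2 units, adjusted p = 0.0171). The change was -0.39 without 72 h replicate 2, and the call was lost without DMSO replicate 2. With all arrays the call was lost with the mean of probe sets and when adjusted over all probe sets.

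The remaining falls at 72 h were called with all arrays and lost without 1 of several arrays. CARD8-AS1, opposite the start of an inflammasome regulator gene, had 75.2, 85 and 85.2 in DMSO and 57.6, 73.5 and 38.8 at 72 h (-0.58 ± 0.19 log2 units, adjusted p = 0.0382), and was at -0.33 without 72 h replicate 3. STARD7-AS1, opposite the start of a lipid transfer protein gene, had 60.9, 53.8 and 63.5 in DMSO, 38.1, 50.5 and 48.2 at 6 h and 43.5, 48.2 and 42.7 at 72 h (-0.41 ± 0.14 log2 units, adjusted p = 0.0429). Its arrays at 6 h also lay below DMSO, but that change did not pass the test (-0.39, adjusted p = 0.684). LBX2-AS1, opposite the start of a homeobox gene, had 55.2, 50.5 and 52.7 in DMSO and 33.7, 41.8 and 45.7 at 72 h (-0.40 ± 0.14 log2 units, adjusted p = 0.0418). AGAP2-AS1, inside the gene of a GTPase-activating protein, had 67.9, 72.4 and 79.9 in DMSO and 61.7, 48.8 and 57.8 at 72 h (-0.39 ± 0.13 log2 units, adjusted p = 0.0335). None of these groups overlapped between DMSO and 72 h. EPB41L4A-AS1 was brighter, at 306, 283 and 293 in DMSO and 282, 215 and 229 at 72 h, and changed by -0.29 ± 0.093 log2 units, adjusted p = 0.0308. Each of these 5 calls was lost when single arrays were left out: CARD8-AS1 without DMSO replicates 1, 2 or 3, 6 h replicate 2 or 72 h replicates 1 or 3; AGAP2-AS1 without DMSO replicates 1, 2 or 3, 6 h replicates 2 or 3 or 72 h replicate 2; EPB41L4A-AS1 without DMSO replicates 1 or 3 or 72 h replicates 2 or 3. STARD7-AS1 lost it without any array but 6 h replicate 1 and 72 h replicate 2, and LBX2-AS1 without any array but 72 h replicates 2 and 3. These 5 members were also not called under at least 1 of quantile, cyclic loess and median scaling. The calls of CARD8-AS1 and EPB41L4A-AS1 were also lost with the mean of probe sets. Their further probe sets, at -0.099 and -0.027 log2 units, did not pass the test.

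Among the members that rose, LMNTD2-AS1 changed most. Its signal was 52.6, 54.6 and 53 in DMSO, 65.6, 55.4 and 66.4 at 6 h and 95.2, 76.6 and 90.7 at 72 h. The 72 h arrays were above all others, 1.63-fold over DMSO (0.71 ± 0.13 log2 units, adjusted p = 0.000735). Further probe sets of this gene were at 0.004 and -0.27 log2 units and did not pass the test, and the mean of its probe sets, at 0.15, was not called. The difference of the sense gene LMNTD2, 0.10, did not pass the test.

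PRR34-AS1 was the brightest member that rose, from 471, 515 and 492 in DMSO to 744, 662 and 636 at 72 h. At 6 h it was at 487, 515 and 509. The rise at 72 h was 1.38-fold (0.46 ± 0.065 log2 units, adjusted p = 9.21e-05), with no overlap between groups. ZNF232-AS1, inside a zinc finger gene, had 247, 267 and 245 in DMSO, 219, 252 and 256 at 6 h and 392, 338 and 293 at 72 h. Its 72 h arrays were the highest, 1.34-fold over DMSO (0.42 ± 0.10 log2 units, adjusted p = 0.0057), and a further probe set was at 0.11 without passing the test.

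ANXA2R-AS1, opposite the start of the annexin A2 receptor gene, had 33, 39 and 38.5 in DMSO, 51.9, 50.6 and 43.7 at 6 h and 53.7, 45.4 and 52.1 at 72 h. Every treated array was above DMSO, and the difference passed the test at 72 h (0.45 ± 0.13 log2 units, adjusted p = 0.0216) and not at 6 h (0.40 ± 0.13 log2 units, adjusted p = 0.541). ATXN1-AS1 had 61.4, 70.6 and 57.8 in DMSO, 71.2, 88.8 and 76.3 at 6 h and 99.7, 80.3 and 73.5 at 72 h (0.41 ± 0.14 log2 units, adjusted p = 0.0415 at 72 h). Its treated arrays also lay above all DMSO arrays. MAPKAPK5-AS1 had 134, 142 and 132 in DMSO and 176, 172 and 151 at 72 h, a rise of 1.22-fold with no overlap (0.29 ± 0.092 log2 units, adjusted p = 0.032). The differences of its further probe sets were -0.29, -0.097 and 0.051, and that of the mean over its probe sets was -0.012, so the direction rests on the brightest probe set. The call of ANXA2R-AS1 was lost without DMSO replicates 1 or 3, that of ATXN1-AS1 without DMSO replicates 1 or 3, 6 h replicates 2 or 3 or 72 h replicates 1 or 2, and that of MAPKAPK5-AS1 without DMSO replicates 1, 2 or 3, 6 h replicate 2 or 72 h replicate 2. MAPKAPK5-AS1 was not called after median centring either. Each of these calls was lost when adjusted over all probe sets. That of ATXN1-AS1 was also lost with the mean of probe sets, without the filter, without the variance trend and with array weights. A further probe set of ATXN1-AS1 was at 0.083 at 72 h and did not pass the test.

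**Figure D2:**
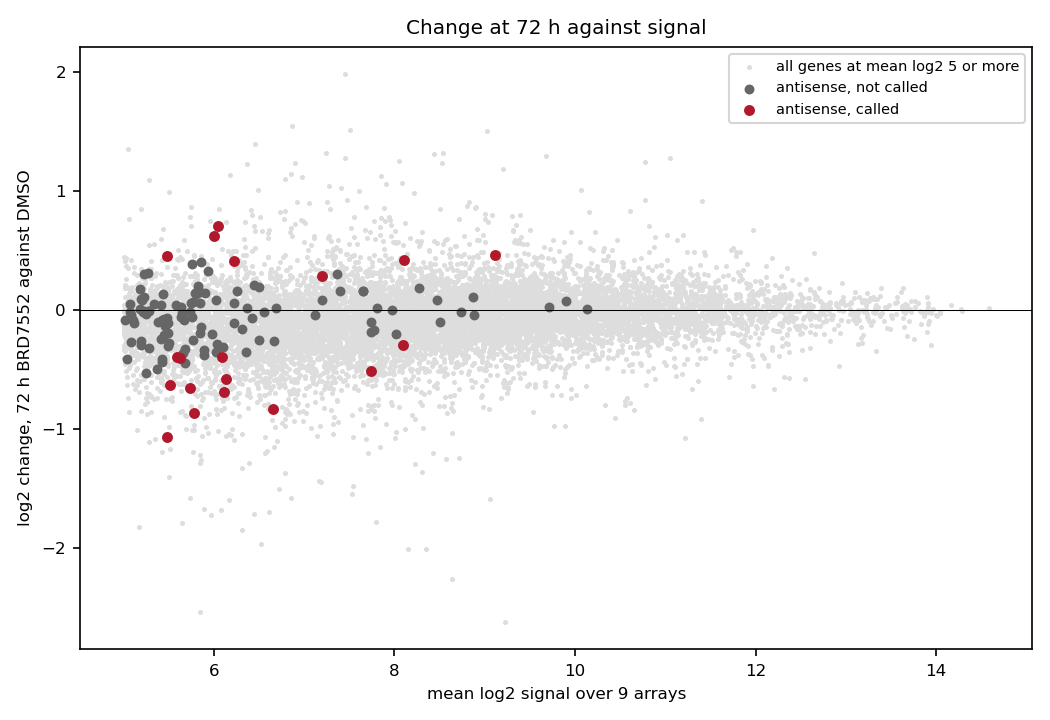
Change at 72 h against DMSO in log2 units (vertical) by mean log2 signal over the 9 arrays (horizontal); grey points are all genes with a mean of 5 or more, large dark points the antisense transcripts not called, and red points the 19 called. Members lie mostly at low signal (median 5.80) and between changes of -1.07 and 0.71.

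Between the times, 14 of 125 members (11.2%) were called, 4 higher and 10 lower at 72 h than at 6 h, against 24% of all genes tested (7.28% higher and 16.7% lower). An unadjusted p below 0.05 by limma was found in 25 members and in 4493 of the 12678 genes tested. This comparison uses the same 72 h arrays as the one against DMSO. The log2 change from 6 h to 72 h was -1.17 for ATP6V0E2-AS1, -0.87 for PARD6G-AS1, -0.52 for PRRT3-AS1, 0.49 for ZNF232-AS1 and 0.43 for PRR34-AS1. The arrays of both times did not overlap in 25 members (20%), against 33.7% of all genes. The split again depended on the scaling: 71.4% of called members were lower on the deposited scale and 63.6% after median centring, but 33.3% after quantile or cyclic loess normalization (14 higher and 7 lower under each). Of all called genes 69.6%, 65.8%, 53.2% and 51.8% were lower on the deposited scale and after median centring, quantile and cyclic loess normalization. Without 6 h replicate 2 the count of members was 5, with 16.8% of all genes called. Without 6 h replicate 3 it was 8, with 18.3% of all genes, and without 72 h replicate 1 it was 29 (23.2%; 31.6% of all genes).

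The calls between the times included 3 members that had not passed against DMSO. ITPR3-AS1, antisense to an inositol trisphosphate receptor gene, had 48.1, 43.8 and 45.3 in DMSO, 42.7, 56.2 and 57.2 at 6 h and 42.6, 28.6 and 31.7 at 72 h. All 72 h arrays were below all others, and the change passed the test between the times (-0.61 ± 0.16 log2 units, adjusted p = 0.0141) and not against DMSO (-0.43 ± 0.16 log2 units, adjusted p = 0.0637). NUTM2B-AS1 had 52.9, 58.1 and 49.8 in DMSO, 49, 58.1 and 47.4 at 6 h and 92.5, 62.8 and 60.8 at 72 h. It was higher at 72 h, with replicate 1 the highest (0.46 ± 0.16 log2 units, adjusted p = 0.0475, and 0.27 without that array). OIP5-AS1, a transcript also known as Cyrano that binds the microRNA miR-7, had 459, 471 and 452 in DMSO, 510, 503 and 503 at 6 h and 475, 432 and 438 at 72 h. Its 72 h arrays were below those at 6 h and overlapped DMSO (-0.17 ± 0.057 log2 units, adjusted p = 0.0396 between the times), and the differences of further probe sets were -0.054 and -0.256. The call of ITPR3-AS1 was lost without 6 h replicates 2 or 3 or 72 h replicate 2. That of NUTM2B-AS1 was lost without any array but 72 h replicates 2 and 3, and that of OIP5-AS1 without any array but 72 h replicate 1. With all arrays, the calls of NUTM2B-AS1 and OIP5-AS1 were also lost with the mean of probe sets and without the filter. Both were lost without the variance trend and when adjusted over all probe sets.

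In all, 103 of the 125 members were called in no comparison. Their changes at 72 h ran from -0.53 to 0.38, the highest being NRSN2-AS1. The largest in size were those of ARRDC1-AS1, with 44.9, 39.7 and 48.4 in DMSO and 39.7, 21 and 34.7 at 72 h (-0.53 ± 0.20 log2 units, adjusted p = 0.0606), and ELOA-AS1, with 44.7, 53.2 and 44.7 and 44.6, 35.8 and 24 (-0.49 ± 0.19 log2 units, adjusted p = 0.0638). In both, 72 h replicate 1 lay close to the lowest DMSO array and the other 72 h arrays lay below it. Without 72 h replicate 2 the change of ARRDC1-AS1 was -0.25, and without 72 h replicate 3 that of ELOA-AS1 was -0.25. GABPB1-AS1 had 89.5, 105 and 88.1 at 6 h and 96.4, 43.6 and 73.3 at 72 h (-0.48 ± 0.21 log2 units, adjusted p = 0.114 between the times), and the mean over its probe sets had the other sign, at 0.070. Its change was -0.73 without 72 h replicate 1 and -0.16 without 72 h replicate 2. FGD5-AS1, the brightest member, had 1137, 1133 and 1128 in DMSO and 1133, 1144 and 1142 at 72 h and was not called. AFAP1-AS1, studied as a transcript raised in pancreatic tumours, differed by 0.19 ± 0.089 at 72 h without passing the test and was called after quantile and cyclic loess normalization.

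Of the 125 members, 103 had a sense gene that was tested, 8 a sense gene below the filter and 14 none among the genes of the array with a probe set of 1 symbol. Of these 103 sense genes, none was called at 6 h by limma, with 8 at an unadjusted p below 0.05, and the smallest adjusted p was 0.0665 for RIPOR3. At 72 h, 32 sense genes were called (31.1%; 26.6% of all genes), 12 higher and 20 lower. Of all genes at log2 5 or more 31% were called, and of those at 7 or more 35.5%. Between the times 24 were called (23.3%; 24% of all genes), 12 in each direction. The median change of the sense genes was -0.0014 log2 units at 72 h.

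Antisense and sense genes were called together in 5 pairs at 72 h, the antisense gene alone in 12, the sense gene alone in 27 and neither in 59. The precision was unlike: the median standard error of a change was 0.140 log2 units in members and 0.0864 in sense genes. Whether sense genes changed more than antisense genes was not tested. The signs of the 2 changes were the same in 55 of 103 pairs (53.4%), and Pearson's r over the pairs was 0.13 (Spearman's rho 0.14), as a description over pairs that share the same 9 arrays. At 6 h the signs were the same in 54 pairs and Pearson's r was 0.19, and between the times in 53 with 0.11.

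**Figure D3:**
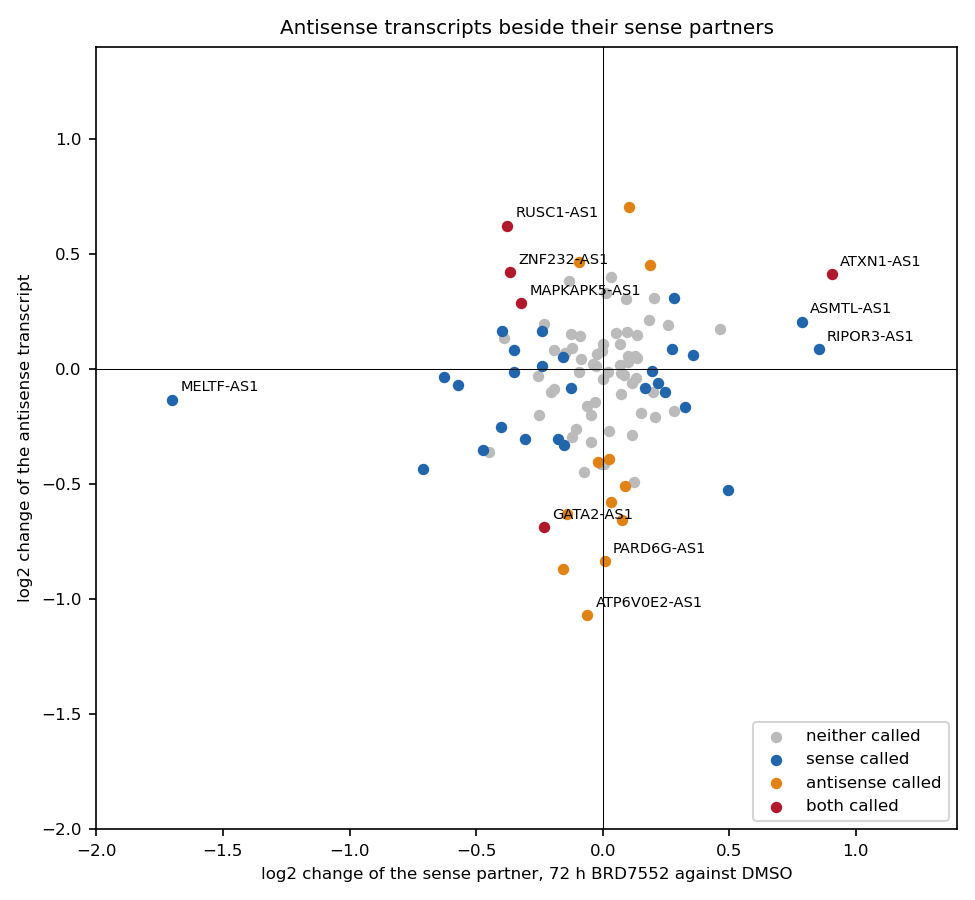
Change at 72 h against DMSO in log2 units of the sense gene (horizontal) and of the antisense gene (vertical) for the 103 pairs, 1 point a pair, coloured by which of the genes were called. The 5 pairs with both called hold 2 of the same direction and 3 of opposite directions.

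In 3 of the 5 pairs the directions were opposite. RUSC1 had 403, 444 and 441 in DMSO, 452, 429 and 417 at 6 h and 324, 356 and 313 at 72 h. At 6 h, when RUSC1-AS1 rose, its sense gene overlapped DMSO (0.01), and at 72 h it fell (-0.38 ± 0.069 log2 units, adjusted p = 0.000919). The change of antisense minus sense was 0.90 at 6 h and 1.00 at 72 h. ZNF232 had 236, 240 and 247 in DMSO and 214, 187 and 164 at 72 h, where ZNF232-AS1 was higher. The sense gene fell with no overlap (-0.37 ± 0.093 log2 units, adjusted p = 0.00892), and antisense minus sense changed by 0.79. MAPKAPK5, a stress-activated protein kinase, had 298, 266 and 305 in DMSO and 253, 238 and 207 at 72 h. It fell (-0.32 ± 0.086 log2 units, adjusted p = 0.0118), with a change of antisense minus sense of 0.61, and its call was lost without DMSO replicates 1 or 3 and after median centring. The mean over the probe sets of MAPKAPK5-AS1 had the other sign, so its rise rests on the brightest probe set. Each of these changes of antisense minus sense had p = 0.1 by the two-sided exact permutation test, the smallest that 3 against 3 arrays allow. At 72 h this value was fixed by the choice of pairs. Neither gene of these pairs overlapped between the groups and the directions were opposite, so their difference could not overlap. The value at 72 h is thus no further support. That value was reached by 16 of 103 pairs at 6 h, 43 at 72 h and 37 between the times.

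The other 2 pairs moved in the same direction. GATA2 had 456, 449 and 461 in DMSO, 408, 388 and 404 at 6 h and 389, 370 and 405 at 72 h, and fell with the antisense gene (-0.23 ± 0.059 log2 units, adjusted p = 0.009). Its treated arrays all lay below DMSO, and the call was lost after median centring. The change of antisense minus sense was -0.46, with p = 0.2 by the exact permutation test. ATXN1, the gene of the protein whose repeat expansion causes a spinocerebellar ataxia, had 115, 130 and 96.4 in DMSO, 148, 136 and 163 at 6 h and 228, 216 and 192 at 72 h. All 72 h arrays lay above the rest, 1.87-fold over DMSO (0.91 ± 0.12 log2 units, adjusted p = 4.64e-05), and the change of antisense minus sense was -0.49 (exact permutation p = 0.1). The call of ATXN1-AS1 was lost with the mean of its probe sets.

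**Figure D4:**
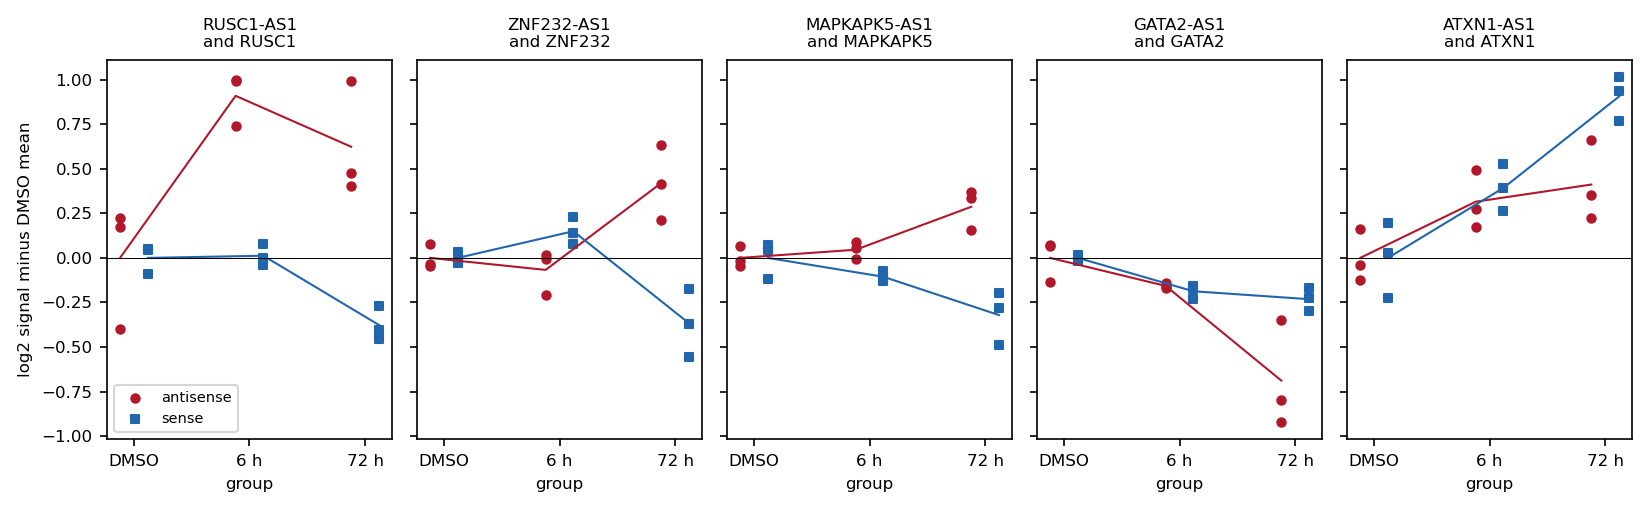
Signal of the pairs of RUSC1, ZNF232, MAPKAPK5, GATA2 and ATXN1 on each of the 9 arrays, antisense and sense gene, as log2 difference from the DMSO mean of the same gene; lines join the group means. Each gene is shown by its brightest probe set. At 72 h the antisense genes of RUSC1, ZNF232 and MAPKAPK5 lie above 0 and their sense genes below it, while both genes of the GATA2 pair lie below and both of the ATXN1 pair above.

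Some sense genes were called with large changes while their antisense partner was not called. MELTF, the iron-binding protein melanotransferrin, had 135, 141 and 145 in DMSO, 135, 165 and 162 at 6 h and 57.9, 45.3 and 30.6 at 72 h. It fell by 1.70 ± 0.18 log2 units (adjusted p = 6.17e-06), while MELTF-AS1, at 45.6, 45 and 42.2 and 44.8, 35.2 and 41.7, overlapped (-0.13 ± 0.14 log2 units, adjusted p = 0.548). Antisense minus sense differed by 1.57 (exact permutation p = 0.1). RIPOR3 had 109, 122 and 113 in DMSO, 159, 164 and 158 at 6 h and 238, 209 and 179 at 72 h (0.85 ± 0.10 log2 units, adjusted p = 2.84e-05 at 72 h), and its antisense gene was at 0.085. ASMTL had 164, 147 and 156 in DMSO and 298, 276 and 236 at 72 h (0.79 ± 0.10 log2 units, adjusted p = 2.61e-05), and its antisense gene was at 0.21. The difference of ITPR3-AS1 against DMSO, given above, had the sign of its sense gene: ITPR3, an intracellular calcium channel, had 1237, 1210 and 1185 in DMSO and 741, 734 and 743 at 72 h and fell (-0.71 ± 0.042 log2 units, adjusted p = 1.87e-08). TBX2, a T-box transcription factor, changed by -0.63 and its antisense gene was at -0.037. These are the 5 largest changes among sense genes called at 72 h whose antisense gene was not called. Between the times, ITPR3 fell with ITPR3-AS1, from 1239, 1251 and 1222 at 6 h to 741, 734 and 743 at 72 h (-0.74 ± 0.042 log2 units, adjusted p = 2.02e-08). Antisense minus sense of that pair changed by 0.13 (exact permutation p = 0.6), and its sign turned to -0.0035 without 6 h replicate 1 and -0.031 without 72 h replicate 1. OIP5, a gene of centromere assembly, changed the other way from OIP5-AS1 (0.21 ± 0.049 log2 units, adjusted p = 0.00583), a call lost after median centring.

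By the RefSeq gene table, 94 pairs had both starts. Of these, 79 lay on opposite strands and overlapped: 41 at the 5′ ends, 16 at the 3′ ends, 17 with the antisense gene inside the sense gene and 5 with the sense gene inside the antisense gene. A further 14 lay on opposite strands without overlap, 9 of them divergent with starts within 1000 bases. FAM131B-AS2 lay on the same strand as the sense gene, against its name. At 72 h, 11 of the 41 members overlapping at the 5′ ends were called (26.8%), close to the 26.6% of all genes, among them ATP6V0E2-AS1, RUSC1-AS1, GATA2-AS1, LOXL1-AS1 and PRRT3-AS1. Of the 17 inside the sense gene 4 were called (CNTFR-AS1, ZNF232-AS1, AGAP2-AS1 and EPB41L4A-AS1). None was called of the 16 overlapping at the 3′ ends or of the 9 divergent ones by limma, with 4 and 2 at an unadjusted p below 0.05, and 4 were called of the 31 with no entry. The sign of the change was the same as in the sense gene in 15 of the 35 tested pairs that overlap at the 5′ ends. The arrangements were looked at after the calls were known, and no difference between them was tested.

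Factors of nuclear RNA decay turn over many antisense transcripts. Of 30 listed genes 28 were tested, and the list was not confined to nuclear factors: it also held XRN1 and DCP2. None was called at 6 h, and none had an unadjusted p below 0.05 by limma. At 72 h 6 were called (21.4%; 26.6% of all genes), and 11 had an unadjusted p below 0.05. The arrays of both groups did not overlap in 14 (50%; 36.9% of all genes). Among those called, the exosome subunits EXOSC2 (-0.34), EXOSC4 (-0.30) and EXOSC5 (-0.42), the cap-binding protein NCBP1 (-0.40) and the nuclear exonuclease XRN2 (-0.17) fell, and ZCCHC8 (0.23), a subunit of the nuclear exosome targeting complex, rose. The median change of the list was -0.066 log2 units. All factors called at 72 h had a mean above log2 7. Of all genes at log2 7 or more, 35.5% were called at 72 h and the arrays did not overlap in 46.9%. An unadjusted p below 0.05 by limma was found in 3543 of these 7578 genes, and in 4683 of all 12678.

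Other long noncoding transcripts above the same threshold were counted for comparison, without matching their levels to those of the members. Of 60 LINC genes with a mean of log2 5 or more, none was called at 6 h by limma, with 2 at an unadjusted p below 0.05, and 12 (20%) were called at 72 h, 4 higher and 8 lower. The largest of these were LINC01116 (-0.95), LINC00261 (0.76) and LINC00662 (0.60). Of 47 divergent, intronic and overlapping transcripts (symbols ending -DT, -IT or -OT), none was called or had an unadjusted p below 0.05 at 6 h by limma, and 10 (21.3%) were called at 72 h, 4 higher and 6 lower. The share of antisense members was 15.2% and that of all genes at log2 5 or more was 31%, and the difference between these groups was not tested. Among the 105 dimmer antisense genes, 3 fell at 72 h (2.86%), namely SP2-AS1 (-0.46), PRKCQ-AS1 (-0.74) and SLC16A1-AS1 (-0.75). Of all 3378 genes called at 72 h, 3292 had a mean of log2 5 or more, as had 10636 of the 12678 tested.

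Further probe sets did not always follow the one used. Above the filter, 32 members had 39 further probe sets, and 22 of these changed in the same direction at 72 h. For the members called at 72 h there were 8 further probe sets, of which 5 had the same sign and none passed the test adjusted over all probe sets by limma. Among the further probe sets of members not called, 2 passed at 72 h: 1 of CKMT2-AS1 (-0.59, adjusted p = 0.0297) and 1 of GABPB1-AS1 (0.58, adjusted p = 0.0349), the latter opposite in sign to the probe set used. Identical signal on at least 2 arrays was seen in 69 of the 125 members and in 5 of the 22 called in any comparison.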

How the data were processed

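RNA of PANC-1 cells was labelled and hybridised to 9 Affymetrix arrays, 3 per group, grouped by the labels. The authors deposited 1 table of linear probe set intensity for 54675 probe sets. MAS5 was used per the submitters' processing notes, without a version or scaling target. Equal values on 2 or more arrays, in 59.2% of probe sets, are unusual for MAS5, so the summary step is uncertain; ties can make a spread too small.

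Symbols were those of GEO's platform annotation: of the probe sets, 41097 had 1 symbol, 1801 had several and 11777 had none, and 41037 matched RefSeq by identifier. Only probe sets with 1 symbol were used, without the 62 control sets. Intensities were log2 transformed as deposited, without pseudocount. Each of 19775 genes kept its brightest probe set, and 12678 with a mean at or above the median probe set (log2 4.15, linear 17.8) were fitted with limma 3.58.1 in R 4.3.3 (lmFit, eBayes with trend, 9 arrays, 6 residual degrees of freedom). Calls needed a Benjamini-Hochberg adjusted p below 0.05 over all genes; "rose" and "fell" refer to such genes, and errors are standard errors. Antisense minus sense was compared by two-sided exact permutation (scipy 1.17.1). The limma fit was checked on simulated data with independent noise. Those data held no ties and no shift shared by the genes of an array, so the check does not cover these features. The number of arrays limits the precision.

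Per-array values are given for every member called in a comparison, with its sense gene where a result turns on it, and for the 3 largest changes among the rest. The members and lists were chosen with earlier results of these data known. Alternatives covered normalization, filter, probe set choice, pseudocount, variance trend, array weights, level threshold, a replicate block and leaving out each array.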

Additional observations from a re-analysis of the deposited data

How the results depend on the processing

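With single arrays left out, the number of antisense transcripts called ran from 0 to 1 at 6 h, 9 to 34 at 72 h and 5 to 29 between the times, and of sense genes from 0 to 1, 24 to 35 and 20 to 30. The share of all genes called ran from 0.221% to 0.56%, 18.1% to 33.3% and 16.8% to 31.6%. The 6 h count of antisense transcripts was 0 without the filter, with the mean of probe sets, adjusted over all probe sets, without the variance trend and at a level threshold of 6, and 2 with array weights. Of all genes, 0.212% were called at 6 h without the filter, 0.174% with the mean of probe sets and 0.221% adjusted over all probe sets. The share was 0.181% without the variance trend and 1.66% with array weights. At 72 h the count of antisense transcripts was 8 adjusted over all probe sets, where 18.2% of all genes were called. At a threshold of 6, where the set held 49 members, it was 11 at 72 h and 9 between the times. Sense genes called at 6 h were 1 with quantile or cyclic loess normalization or a filter at 5, and 3 with array weights.

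Reversed signs were seen with the mean of probe sets for MAPKAPK5-AS1 at 72 h (-0.012) and, between the times, for GABPB1-AS1 (0.070) and ITPR3-AS1 minus ITPR3 (-0.20); the last ran from -0.031 to 0.25 with single arrays left out. Of 34 calls of members over the comparisons, 11 held in all 21 alternatives, among them those of ATP6V0E2-AS1, PRR34-AS1, PRRT3-AS1 and ZNF232-AS1 against both DMSO and 6 h. In 3 scalings, 13 of 19 calls at 72 h held (6 higher, 7 lower), and quantile and cyclic loess normalization each added 12 members, all higher, of which 10 were shared. Except where a setting by its construction tests fewer genes or arrays, the cause was not tested.

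The main fit did not pair arrays by replicate number. Correlations of same-numbered deviations ran from -0.21 to 0.20 for replicate 1, 0.092 to 0.17 for replicate 2 and -0.26 to 0.155 for replicate 3. These were not compared with correlations of differently numbered arrays, so whether the numbers pair the arrays was not settled. With the replicate block, 1, 17 and 13 antisense transcripts and 0, 31 and 24 sense genes were called at 6 h, at 72 h and between the times. Of all genes, 0.426%, 25.2% and 22.4% were called in that setting. AGAP2-AS1 (-0.39), STARD7-AS1 (-0.41) and LBX2-AS1 (-0.40) at 72 h, and LBX2-AS1 (-0.40) and OIP5-AS1 (-0.17) between the times, were no longer called.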
